A study of Equus caballus with 20 samples.

Results

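The Notch pathway in the epithelium of the equine oviduct was described through 10 genes, given by symbol: the receptors NOTCH1, NOTCH2 and NOTCH3, the ligands JAG1, JAG2 and DLL1, the DNA-binding protein RBPJ, the target genes HES1 and HEY1, and the inhibitor NUMB. All 10 were found by symbol among the 26740 features of the expression table, and all 10 passed the filter on low values, more than 1 CPM (reads scaled to the library total) in at least 5 libraries, as did 14692 features in all. The table holds 20 RNA sequencing libraries of oviduct epithelial cells from Warmblood mares, sampled 4 days after ovulation at the ampullary-isthmic junction, the stretch between the wide and the narrow segment of the tube. The groups, of 5 libraries each, are pregnant mares on the side of ovulation (ipsilateral, PI), pregnant mares on the other side (contralateral, PC), cyclic mares on the side of ovulation (CI) and cyclic mares on the other side (CC). The question that the design addresses is whether an embryo in the oviduct, or the side of ovulation, goes with a difference in epithelial gene expression. The age of the mares, and whether libraries with the same number on both sides come from the same mare, are not stated by the labels.

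Notch signalling works between touching cells. A ligand on 1 cell binds a Notch receptor on its neighbour, proteases then cut the receptor, and its freed intracellular part enters the nucleus, joins RBPJ and a coactivator of the Mastermind-like family, and switches on repressors of the HES and HEY families. In airway epithelium of the mouse, active Notch favours secretory cells and its inhibition favours multiciliated cells, the pair of cell types that also make up the oviduct lining. A level in a bulk library averages over both cell types, so fewer cells of a type and less RNA per cell cannot be told apart. All values are TMM-normalized counts as deposited, a scale on which libraries can be compared. Genes are not compared with each other by level, because no transcript lengths were used here. Differences are on the scale of log2(normalized count + 3.03), which understates the change of low genes.

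Library depth ran from 2795168 to 10126484 reads, and 3 reads, the most that a count of 0 allows, equal 1.75 to 7.03 normalized counts depending on the library. A single feature without a symbol, ENSECAG00000014226, took 14.4% of the reads in PI1, 27.8% in PI4 and 15.4% in CI3. Epithelial markers were abundant, with EPCAM, a surface protein of epithelial cells, at 1567 ± 302, 1838 ± 382, 1885 ± 512 and 1884 ± 359 normalized counts in PI, PC, CI and CC libraries (SD, n = 5 each). Defining markers of other cells were also detected: PTPRC, which leukocytes carry, averaged 277 ± 87.4, 336 ± 207, 225 ± 163 and 182 ± 49.3, and the endothelial VWF 625 ± 512, 677 ± 506, 390.2 ± 264 and 508 ± 311 in the same order. The study calls the 5 libraries of a group biological replicates, and p-values measure the spread between them.

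The 10 genes showed no difference between groups that passed the test. In each of the 7 comparisons made, 0 of 10 had an adjusted p under 0.05 and 0 of 10 an unadjusted p under 0.05 in limma's test, and for none of the 10 genes did the libraries of a pair of groups separate without overlap. The lowest p-values belonged to NOTCH2 and HES1, which both averaged lower in pregnant than in cyclic mares on both sides. The values of the single libraries follow by role in the pathway, in the order of their numbers, 1 to 5.

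Among the receptors, NOTCH1 was the most even. NOTCH1, a widely expressed receptor of epithelia, measured 520.2, 601, 479, 642 and 509 normalized counts in PI libraries, against 631, 566, 634, 503 and 609 in CI libraries. It measured 550.1, 647, 549.5, 579 and 654 in PC libraries, against 672, 595, 709, 424 and 541 in CC libraries. The ranges of all 4 groups overlapped, and the CC group, with both the highest and the lowest value, held the range of every other group. The log2 difference was -0.10 ± 0.14 between PI and CI (SE; 95% interval -0.38 to 0.18) and 0.037 ± 0.14 between PC and CC (interval -0.25 to 0.32).

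NOTCH2, a receptor closely related to NOTCH1, measured 1971, 2814, 1995, 1939 and 1642 normalized counts in PI libraries, against 2885, 3204, 1849.6, 2835 and 1962 in CI libraries. In PC libraries it measured 1929, 3246, 2147, 2736 and 2153, against 3216, 4108, 3104, 2011 and 2284 in CC libraries. Of the PI libraries 4 lay at or under 1995 and PI2 stood apart at 2814, whereas 3 of the CI libraries lay at 2835 or above and CI3 and CI5 at 1962 or under. The library with the number 2 was the highest of its group in PI, PC, CI and CC. The difference was -0.29 ± 0.21 between PI and CI (adjusted p = 0.999, limma) and -0.25 ± 0.21 between PC and CC (adjusted p = 0.9998), and averaged over both sides -0.27 ± 0.15 (interval -0.58 to 0.043, unadjusted p = 0.0872, adjusted p = 0.646). The contralateral difference was -0.12 without CC2, and with log2 total reads as a covariate the ipsilateral difference was -0.10 and the contralateral one -0.39.

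NOTCH3, a receptor best known from mural cells of vessels and also expressed in epithelia, measured 1319, 1097, 585, 938 and 863 normalized counts in PI libraries, against 1363, 1013, 1212, 886 and 950.5 in CI libraries. The PC libraries measured 1240.2, 1327, 694, 893 and 898, against 1834, 1248, 1274, 655 and 1037 in the CC libraries. The spread within groups was wide, with PI3 and PC3 the lowest of their groups, CC4 the lowest of the cyclic libraries and CC1 the highest of all 20. The difference was -0.21 ± 0.25 between PI and CI and -0.22 ± 0.25 between PC and CC, with intervals of -0.72 to 0.31 and -0.74 to 0.29. Single libraries carried much of both: the difference between PI and CI was -0.042 without PI3, and that between PC and CC -0.053 without CC1. Across the 20 libraries NOTCH3 correlated with the mean log2 level of 4 mural markers at r = 0.26 (adjusted p = 0.660, permutation test).

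JAG1, the Jagged ligand best known from duct and sensory epithelia, measured 1378, 1320.4, 1503, 708 and 1426 normalized counts in PI libraries, against 1133, 1024, 1162, 1091 and 1444 in CI libraries. On the other side it measured 1426, 1479, 1444, 866 and 1482 in PC libraries, against 1206, 1209, 1498, 877 and 1734 in CC libraries. Apart from PI4 and PC4 the pregnant libraries were close together, at 1320.4 to 1503, and above 4 of the 5 CI libraries; PI4 and PC4 were each the lowest of their group, and CC4 was the lowest of the CC libraries. With all libraries the difference was 0.075 ± 0.21 between PI and CI and 0.047 ± 0.21 between PC and CC. Without PI4 and PC4, a choice made after seeing the values, it was 0.27 (limma, unadjusted p = 0.110) between PI and CI and 0.20 (unadjusted p = 0.240) between PC and CC. Neither passed adjustment (adjusted p = 0.998 and 0.9998, limma).

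JAG2, the second Jagged ligand, measured 1279, 1150.3, 974, 1436 and 1145 normalized counts in PI libraries, against 844, 910.3, 1675, 1204 and 1004 in CI libraries. It measured 1303, 1471, 980.4, 1171 and 1021 in PC libraries, against 1000.0, 1185, 1327, 807 and 1015 in CC libraries. The 2 highest of the 20 values were CI3 and PC2, in groups of opposite status, and the differences of 0.12 ± 0.18 between PI and CI and 0.16 ± 0.18 between PC and CC were within the spread.

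DLL1, a Delta-type ligand, was near the counting floor, with 3 to 37 reads a library. Its level was 18.7, 9.72, 5.09, 8.39 and 14.2 normalized counts in PI libraries, against 22.2, 15.5, 16.2, 12.0 and 5.36 in CI libraries. The level was 11.8, 12.3, 11.4, 17.5 and 14.4 in PC libraries, against 14.5, 22.6, 20.2, 5.01 and 11.5 in CC libraries. At this depth the interval for the difference between PI and CI, -0.99 to 0.45, is wide, as is the one between PC and CC, -0.73 to 0.71, and a difference was not detectable.

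**Figure D1:**
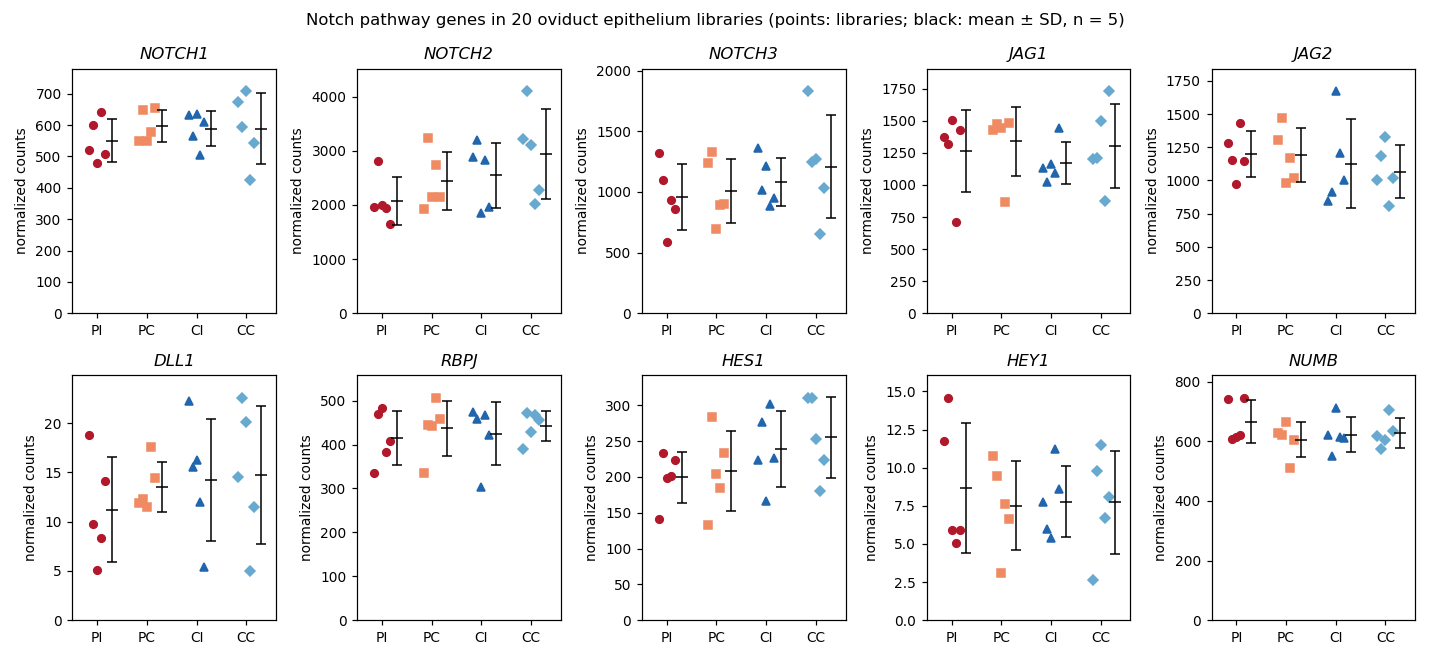
Normalized counts of the 10 Notch pathway genes, 1 panel a gene, each with its own linear axis from 0. Colored points are libraries (5 a group, in the order PI, PC, CI, CC), and the black marks give the mean and SD. In every panel the groups overlap; the single low points of JAG1 are PI4 at 708 and PC4 at 866, and DLL1 and HEY1 stay at or under 22.6 normalized counts.

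RBPJ, the DNA-binding protein on which the receptor's intracellular part docks, measured 335, 469.6, 483, 382 and 409 normalized counts in PI libraries, against 475, 459, 303, 468 and 421 in CI libraries. It measured 336, 444, 442, 507 and 458 in PC libraries, against 390.0, 472, 429, 468 and 456 in CC libraries. The lowest 3 of the 20 libraries were CI3, PI1 and PC1, and the rest lay between 382 and 507. The difference was -0.026 ± 0.14 between PI and CI, with an interval of -0.33 to 0.28, and -0.027 ± 0.14 between PC and CC, with an interval of -0.33 to 0.27. Both intervals lie within a 1.5-fold change (0.58 on the log2 scale) in either direction. Without CI3 the difference between PI and CI was -0.14 (adjusted p = 0.780, limma).

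HES1, a repressor switched on directly by Notch, measured 141, 233, 199, 201 and 223 normalized counts in PI libraries, against 224, 277, 166, 302 and 226 in CI libraries. In PC libraries the values were 133, 284, 204, 185 and 234, against 309.6, 311, 252, 180.4 and 223 in CC libraries. PI1 and PC1 were the lowest of all 20 libraries, and the 3 highest, CC1, CC2 and CI4, were cyclic; the groups still overlapped on both sides. HES1 averaged 199 ± 36.0 in PI and 239 ± 52.9 in CI libraries, and 208 ± 55.9 in PC and 255 ± 56.3 in CC libraries (SD, n = 5 each). The difference was -0.25 ± 0.21 between PI and CI (adjusted p = 0.999, limma), -0.31 ± 0.21 between PC and CC (adjusted p = 0.9998) and -0.28 ± 0.15 averaged over both sides (interval -0.58 to 0.031, unadjusted p = 0.0753, adjusted p = 0.625). Without PC1 the contralateral difference was -0.16, and with the depth covariate the ipsilateral one was -0.10 and the contralateral one -0.42.

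HEY1, the other direct target, was also near the counting floor, with 2 to 16 reads a library. It measured 11.7, 14.6, 5.94, 5.03 and 5.91 normalized counts in PI libraries, against 7.73, 5.96, 5.40, 11.2 and 8.57 in CI libraries. The values were 10.8, 9.43, 3.12, 7.60 and 6.65 in PC libraries, against 2.64, 9.76, 11.5, 6.68 and 8.05 in CC libraries. In PI4, PC3, CI3 and CC1 the value rests on 3 reads or fewer, and the interval between PI and CI, -0.60 to 0.72, leaves room for a change of over 1.5-fold in both directions; a difference was not detectable at this depth.

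NUMB, which marks Notch receptors for removal from the membrane and so dampens the signal in the cell that inherits it, measured 743, 608, 614, 622 and 746 normalized counts in PI libraries, against 622, 551, 713, 614 and 613 in CI libraries. It measured 629, 621, 666, 509.7 and 604 in PC libraries, against 617, 574, 605, 706 and 636 in CC libraries. NUMB had the narrowest spread of the 10 genes, and all of its values but those of PC4, CI3, PI1 and PI5 lay between 551 and 706. The difference was 0.10 ± 0.11 between PI and CI (interval -0.14 to 0.33) and -0.052 ± 0.11 between PC and CC (interval -0.28 to 0.18).

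The counts for the 10 genes were set beside those over all features tested. Between PI and CI, 0 of 10 had an unadjusted p under 0.05, against 3.5% of all 14692 features, and 0 of 10 did not overlap, against 0.592%; 0 features in all passed adjustment, and DESeq2 and edgeR run on the recovered reads also gave 0, with 560 and 494 features at an unadjusted p under 0.05 where limma gave 514. Of the 10 genes 4 were higher and 6 lower, where 48.1% of all features were higher, with a median difference of -0.063, against -0.011 over all features. Between PC and CC, 0 of 10 had an unadjusted p under 0.05, against 4.55%, and 0 of 10 did not overlap, against 0.585%; 3 were higher and 7 lower, where 51.8% of all features were higher, with a median of -0.020, against 0.0092 over all features. Here limma and edgeR called 0 features after adjustment and DESeq2 6, and the counts at an unadjusted p under 0.05 were 669, 838 and 950.

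In the pregnancy comparison averaged over both sides, 16 features passed adjustment, 0.109% of those tested, and 0 of the 10 genes were among them; 9.19% of all features and 0 of the 10 genes had an unadjusted p under 0.05. In direction, 4 of the 10 were higher and 6 lower, where 49.9% of all features were higher. With libraries of the same status and number held as a random block, 0 features passed. In that fit the unadjusted p was 0.136 for NOTCH2 and 0.131 for HES1 (limma). Where same-numbered libraries share a mare, the averaged p-values without the block are too small and the intervals too narrow. For 9 of the 10 genes the 95% interval without the block stayed within a 1.5-fold change on this log2 scale, and DLL1 was the exception. The scale understates the change of low genes. The bound is therefore not shown to hold in counts for HEY1, with an interval of -0.44 to 0.49 and 2 to 16 reads. Between single groups the intervals of NOTCH1, JAG1, JAG2, RBPJ and NUMB stayed within that bound on both sides, and those of NOTCH2, NOTCH3, DLL1, HES1 and HEY1 did not.

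**Figure D2:**
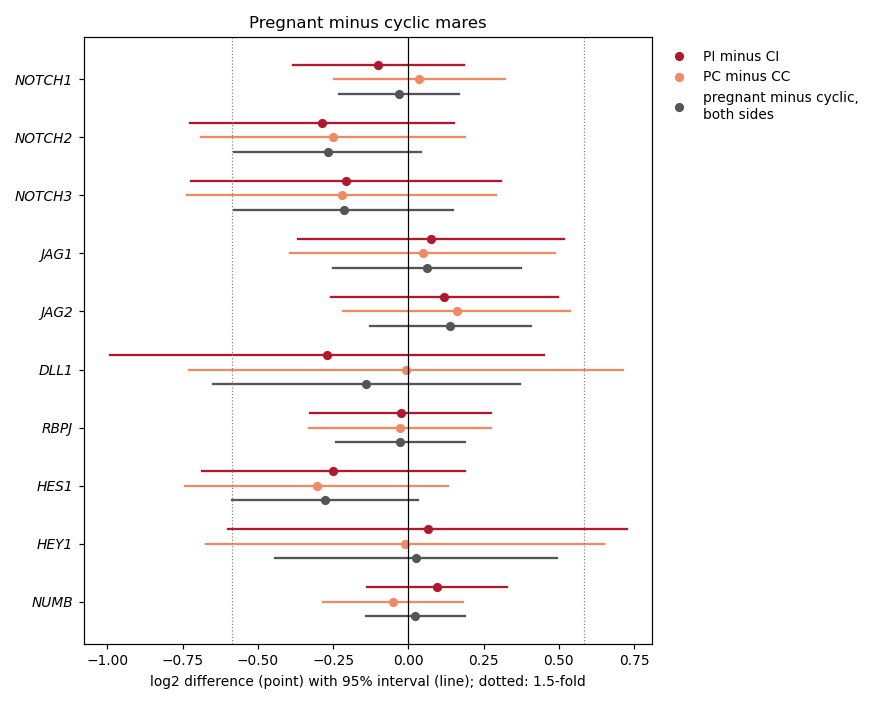
Log2 differences between pregnant and cyclic mares for the 10 genes, with points for the estimate and lines for the 95% interval, ipsilateral (PI minus CI), contralateral (PC minus CC) and averaged over both sides. Dotted lines mark a 1.5-fold change. Every interval includes 0; NOTCH2 at -0.27 and HES1 at -0.28 lie farthest from 0 in the averaged comparison, and DLL1 and HEY1 have the widest intervals.

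Markers of other cells were measured in the same libraries, and 0 of them passed adjustment. All 8 leukocyte markers kept were higher in pregnant mares in the averaged comparison, with a median of 0.61, and 4 of them had an unadjusted p under 0.05, as did 4.74% of all features in that direction. All 9 stromal markers were lower, with a median of -0.48, and 3 of them had an unadjusted p under 0.05, as did 4.45% of all features in that direction. The fit behind these counts had no block, and its p-values are too small where same-numbered libraries share a mare. Leukocyte markers summed to 554 to 1803 normalized counts in PI, 878 to 2913 in PC, 573 to 1994 in CI and 681 to 1216 in CC libraries. Stromal markers summed to 1169 to 6972 in PI, 1909.8 to 5152 in PC, 2520.3 to 5329 in CI and 1389.6 to 8476 in CC libraries. With the leukocyte level as a covariate the averaged difference was -0.42 for NOTCH2 and -0.29 for HES1. With the mean level of smooth muscle, endothelial, mural and stromal markers as a covariate it was -0.21 for NOTCH2 and -0.24 for HES1. Neither gene passed adjustment in either fit. The median differences of the other marker lists were 0.031 for 7 smooth muscle, 0.11 for 8 endothelial, -0.033 for 4 mural, -0.045 for 5 epithelial and 0.47 for 6 proliferation genes, and the 2 red cell markers found were at or near 0.

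The side of ovulation made no difference that passed the test in either status. In pregnant mares, PI against PC, 0 of 10 genes had an unadjusted p under 0.05, against 0.762% of all features, and 0 of 10 did not overlap, against 0.136%. The largest differences were -0.28 ± 0.35 for DLL1, -0.23 ± 0.21 for NOTCH2 and 0.14 ± 0.11 for NUMB. With the depth covariate those of NOTCH2 and NUMB were -0.014 and 0.037. NUMB averaged 667 ± 71.5 normalized counts in PI libraries and 606 ± 58.4 in PC libraries, and NOTCH2 2072 ± 439 in PI and 2442 ± 539.8 in PC libraries (SD, n = 5 each). In cyclic mares, CI against CC, 0 of 10 had an unadjusted p under 0.05, against 0.286%, and 0 of 10 did not overlap, against 0.0681%. NOTCH2 averaged 2547 ± 604 in CI and 2944 ± 831 in CC libraries, with a difference of -0.20 ± 0.21, and JAG1 averaged 1171 ± 161 in CI and 1305 ± 326 in CC libraries, with a difference of -0.13 ± 0.21. Averaged over both statuses, 0 of 10 had an unadjusted p under 0.05, against 0.681% of all features, and NOTCH2 had the lowest p of the 10 (-0.22 ± 0.15, unadjusted p = 0.164, adjusted p = 0.999, limma). After adjustment limma, edgeR and DESeq2 called 0 features in each of the 3 side comparisons. At an unadjusted p under 0.05 the counts were 112, 77 and 83 in pregnant mares, 42, 50 and 55 in cyclic mares, and 100, 71 and 86 over both. None of these fits paired the libraries. With libraries of the same status and number held as a random block, limma gave 455, 214 and 437 such features, and 0 after adjustment. With that block NOTCH2 over both statuses had an unadjusted p of 0.0734 (adjusted p = 0.876, limma).

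The pregnancy difference on the side of ovulation was also set against that on the other side. The interaction was tested for each gene, and 0 of 10 had an unadjusted p under 0.05, against 0.32% of all features; after adjustment limma, edgeR and DESeq2 called 0 features, with 47, 39 and 49 at an unadjusted p under 0.05. Estimates ran from -0.26 ± 0.49 for DLL1 to 0.15 ± 0.16 for NUMB. Their intervals were wide: those of NOTCH1, JAG2, RBPJ and NUMB stayed within a 1.5-fold change and those of the other 6 genes did not. With the depth covariate the interaction was 0.29 for NOTCH2, 0.32 for HES1 and -0.0015 for NUMB, against -0.037, 0.056 and 0.15 without it.

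**Figure D3:**
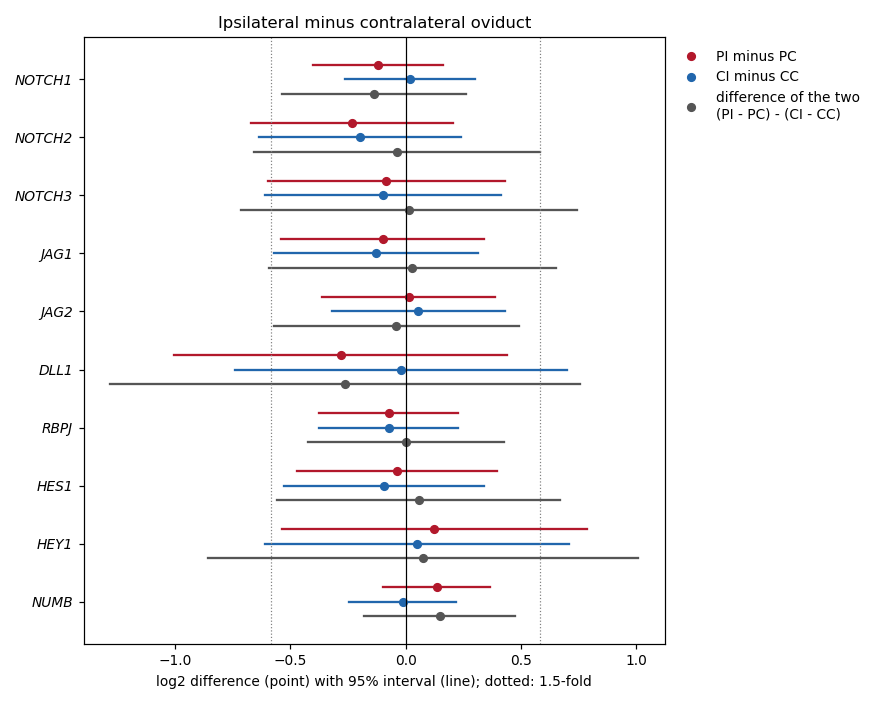
Log2 differences between the ipsilateral and the contralateral oviduct for the 10 genes, with 95% intervals as lines. They are shown in pregnant mares (PI minus PC) and in cyclic mares (CI minus CC). The third series is the first difference minus the second, the interaction of pregnancy and side. Dotted lines mark a 1.5-fold change. Every interval includes 0, and NOTCH2 lies at -0.23 in pregnant mares, -0.20 in cyclic mares and -0.037 in the interaction.

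The rest of the pathway was read from a list of 59 other genes, of which 52 were found by symbol and 49 passed the filter; DLL3, DLK2 and HES7 lay below it. None of the 49 passed adjustment in any of the 7 comparisons. In the averaged pregnancy comparison 15 were higher and 34 lower, with a median of -0.053, against -0.00040 over all features, and 6 had an unadjusted p under 0.05, all lower in pregnant mares; among all features 4.45% were lower at that p. The 5 with the smallest p were MAML3, MIB1, DTX1, HES2 and HEYL, and the sixth was DNER.

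MAML3, a Mastermind-like coactivator that docks on the Notch and RBPJ complex, measured 223, 202, 205, 169 and 248 normalized counts in PI libraries, against 317, 247, 319, 203 and 254 in CI libraries. It measured 184, 218, 245, 119 and 191 in PC libraries, against 327, 211, 228, 257 and 278 in CC libraries. Every PI library lay under the median of the CI libraries, 254, and every PC library under that of the CC libraries, 257, but the ranges overlapped. The difference was -0.34 ± 0.18 between PI and CI, -0.46 ± 0.18 between PC and CC (unadjusted p = 0.0196, adjusted p = 0.9998, limma) and -0.40 ± 0.13 averaged over both sides (unadjusted p = 0.00527, adjusted p = 0.290). Neither MAML1, MAML2 nor the other 5 coactivators had an unadjusted p under 0.05, although all 8 were lower in pregnant mares in the averaged comparison.

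MIB1, the ubiquitin ligase that makes ligands pull on the receptor, averaged 571 ± 107 in PI and 680.3 ± 84.3 in CI libraries, and 585 ± 61.5 in PC and 676 ± 80.2 in CC libraries (-0.24 ± 0.10 over both sides, unadjusted p = 0.0252, adjusted p = 0.451, limma). DTX1, a Deltex protein that modulates the receptor, averaged 404 ± 121 in PI and 505 ± 100.1 in CI, and 377 ± 89.3 in PC and 471 ± 102 in CC libraries (-0.34 ± 0.15, adjusted p = 0.481, limma). Of the other HES and HEY repressors, HES2 averaged 22.3 ± 14.6 in PI and 39.0 ± 31.3 in CI, and 18.8 ± 10.5 in PC and 41.1 ± 34.8 in CC libraries (-0.81 ± 0.37, adjusted p = 0.503). HEYL averaged 181 ± 39.4 in PI and 217 ± 39.7 in CI, and 185 ± 38.7 in PC and 224 ± 38.4 in CC libraries (-0.27 ± 0.13, adjusted p = 0.520). HEY2, the third of this family that was kept, averaged 696 to 731 in the 4 groups and differed by -0.044 ± 0.10. DNER, a transmembrane protein related to the Delta ligands, averaged 1413 ± 545 in PI and 1995 ± 689 in CI, and 1606 ± 632 in PC and 2004 ± 548 in CC libraries (-0.45 ± 0.21, adjusted p = 0.521). With the random block MAML3 and MIB1 kept an unadjusted p under 0.05, and without PI1, PI4 and CI3 MAML3 did. Without these 3 libraries the differences were -0.27 for DNER, -0.51 for HES2, -0.22 for DTX1 and -0.16 for MIB1.

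By role, the medians of the averaged pregnancy difference were -0.31 for 4 other receptors and ligands, -0.090 for 4 enzymes that put sugars on the receptor, -0.088 for 3 ligases of the ligands, -0.091 for 8 proteases and protease subunits that cut the receptor, -0.054 for 8 coactivators, 0.017 for 9 corepressors, -0.008 for 10 modulators of receptor turnover and -0.27 for 3 HES and HEY repressors. Of the corepressors, which sit on RBPJ when Notch is silent, 5 of 9 were higher, where 49.9% of all features were higher. The genes of the cleavage group were lower in 6 of 8. No gene of either group had an unadjusted p under 0.05 (limma).

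**Figure D4:**
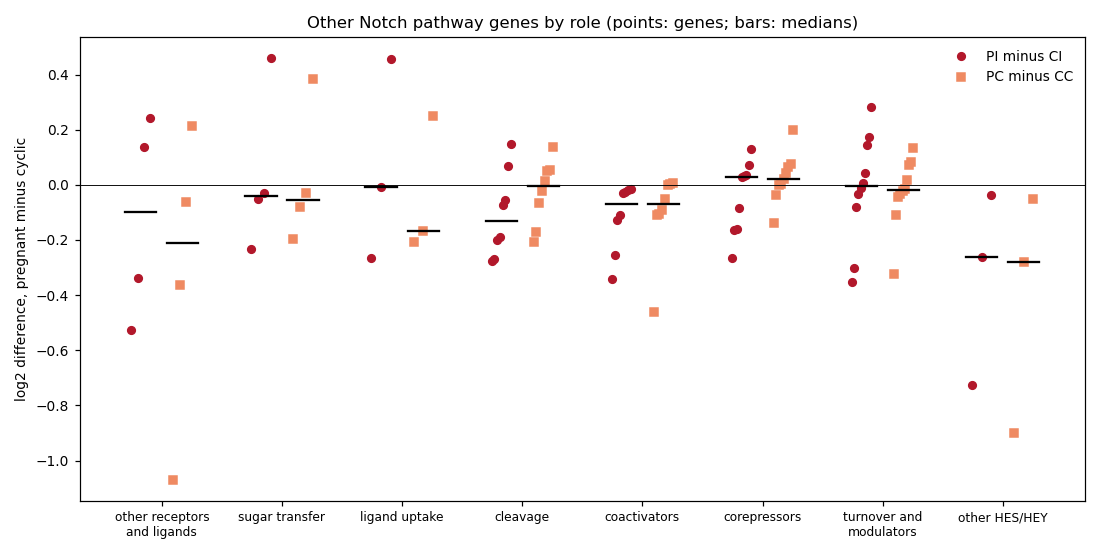
Log2 differences of the 49 other pathway genes by role, PI minus CI (circles) and PC minus CC (squares); each point is a gene, and bars are the medians of a role. Corepressors and turnover modulators center near 0 on both sides, all 3 HES and HEY repressors lie below 0 with HES2 lowest at -0.72 and -0.90, and the lowest point of all is DLK1 at -1.07 between PC and CC.

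In the single comparisons the 5 genes with the smallest p were, between PI and CI, MIB1, MAML3, DNER, DTX1 and CIR1, all lower in PI libraries, with differences of -0.26 to -0.53. Here 0 of the 49 genes had an unadjusted p under 0.05 (limma), against 3.5% of all features, and 16 were higher and 33 lower. Between PC and CC the 5 were MAML3, DLK1, HES2, HEYL and DTX1, all lower in PC libraries. Of the 49 genes 1, MAML3, had an unadjusted p under 0.05 (limma), against 4.55% of all features, and 19 were higher and 30 lower. DLK1, a Delta-like protein, had 0 to 28 reads a library. Between PI and PC the 5 were POFUT1, ADAM10, APH1A, NCSTN and FURIN, all lower in PI libraries, with differences of -0.19 to -0.43. Neither these nor any other of the 49 genes had an unadjusted p under 0.05 (limma), against 0.762% of all features. Of the 49, 22 were higher and 27 lower, with a median of -0.019, against -0.030 over all features. POFUT1 adds the fucose that receptors need, ADAM10, APH1A and NCSTN belong to the proteases that cut the activated receptor, and FURIN cuts it on its way to the membrane. Between CI and CC the 5 were CIR1, DLK1, KAT2B, APH1B and POFUT1, of which CIR1, a corepressor that binds RBPJ, had an unadjusted p under 0.05. CIR1 averaged 216 ± 41.0 in CI and 165 ± 32.6 in CC libraries (0.38 ± 0.16, unadjusted p = 0.0268, adjusted p = 0.99995, limma). It averaged 177 ± 19.7 in PI and 188 ± 24.0 in PC libraries, and its interaction of pregnancy and side was -0.46 ± 0.23 (unadjusted p = 0.0541, adjusted p = 0.99995, limma). With the random block the unadjusted p of this interaction was 0.0187 (adjusted p = 0.9999, limma). The other 4 with the smallest interaction p were DLK1, ADAM17, AAK1 and ADAM10, and over both statuses the ipsilateral difference had its smallest p for POFUT1, APH1A, NCSTN, FURIN and CIR1.

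Fate genes of the oviduct's cell types were set beside the Notch genes. Of 12 multiciliated fate genes kept, 3 had an unadjusted p under 0.05 in the averaged pregnancy comparison, all higher in pregnant mares, against 4.74% of all features. FOXJ1, the master regulator of motile cilia, averaged 4704 ± 1085 in PI and 3896 ± 91.4 in CI, and 5016 ± 1009 in PC and 4021 ± 824 in CC libraries (0.28 ± 0.13, adjusted p = 0.497, limma). RFX2, a transcription factor of ciliogenesis, differed by 0.33 ± 0.12 (adjusted p = 0.377) and TP73, which acts upstream of FOXJ1 in the mouse, by 0.25 ± 0.12 (adjusted p = 0.541). Of the 12 genes 7 were higher, the median was 0.12, and MCIDAS, an early regulator of multiciliated cells, lay below the filter. Of 9 secretory genes kept, 1 had an unadjusted p under 0.05: the mucin MUC1 averaged 166 ± 66.6 in PI and 324 ± 110.1 in CI, and 205 ± 90.3 in PC and 333 ± 102 in CC libraries (-0.87 ± 0.25, adjusted p = 0.205, limma). PAX8, a transcription factor of secretory oviduct cells, differed by -0.079 ± 0.10, and the median over the 9 was 0.064. None of these genes passed adjustment. The fit took all libraries as independent, and where same-numbered libraries share a mare, its SEs and p-values here are too small.

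The 10 genes differed in how much they varied among libraries of a group. The pooled SD within groups was 0.136 for NUMB on the log2 scale, lower than in all but 1.42% of the features kept, 0.194 for NOTCH1 and 0.212 for RBPJ, against a median of 0.403 over all features. It was 0.417 for NOTCH3 and 0.534 for DLL1. Of the variance of NOTCH2, 23.9% lay between the 4 groups, and of HES1 18.3%, against a median of 10.1% over all features.

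Across the 20 libraries, 45 pairs of the 10 genes were correlated, and 5 had an adjusted p under 0.05 (permutation test, Benjamini-Hochberg over the 45). HES1 went with NOTCH2 at r = 0.73 (adjusted p = 0.0149, permutation) and rho = 0.79 (adjusted p = 0.00630, permutation). Within the groups, with the group means removed, r was 0.69, and without the 2 libraries farthest from the median of NOTCH2 it was 0.66. NUMB ran against NOTCH2 at r = -0.64 (adjusted p = 0.0287; rho = -0.61, adjusted p = 0.0564, permutation) and at -0.66 without 2 libraries. DLL1, low as it was, went with NOTCH3 at r = 0.64 (adjusted p = 0.0287; rho = 0.61, adjusted p = 0.0564, permutation) and at 0.60 without 2 libraries. NOTCH1 went with NOTCH3 at r = 0.66 (adjusted p = 0.0287; rho = 0.62, adjusted p = 0.0564, permutation), and RBPJ against JAG2 at r = -0.60 (adjusted p = 0.0457; rho = -0.48, adjusted p = 0.196, permutation). These last pairs rested on the 2 libraries farthest from the median, without which r was 0.46 (permutation p = 0.0553) and -0.42 (permutation p = 0.0856). Libraries of the same number may come from the same mare, in which case these p-values are too small.

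Measures of the libraries moved with the same genes. Of 100 relations between the 10 genes and depth or marker levels, 5 had an adjusted p under 0.05 by Pearson's r. NUMB was lower in deeper libraries, with r = -0.84 against log2 total reads (adjusted p = 0.00200; rho = -0.76, adjusted p = 0.0190, permutation), r = -0.83 within the groups and r = -0.88 without 2 libraries. Only 0.191% of all features had a lower correlation with depth, and the middle 90% of them lay between -0.72 and 0.74. NUMB also ran against the mean level of 5 epithelial markers at r = -0.87 (adjusted p = 0.00100; rho = -0.66, adjusted p = 0.0517, permutation), and at -0.77 without 2 libraries. NOTCH2 went with depth at r = 0.65 (adjusted p = 0.0384; rho = 0.58, adjusted p = 0.127, permutation) and with the epithelial markers at r = 0.68 (adjusted p = 0.0175; rho = 0.64, adjusted p = 0.0578, permutation). Without 2 libraries these were 0.57 and 0.60. RBPJ went with depth by rank alone (rho = 0.72, adjusted p = 0.0190; r = 0.63, adjusted p = 0.0523, permutation). HES1 went with depth at r = 0.51 (adjusted p = 0.172, permutation). NOTCH1 went with the mean level of 9 secretory markers at r = 0.72 (adjusted p = 0.0150; rho = 0.74, adjusted p = 0.0190, permutation) and at 0.58 without 2 libraries. Of the 9 epithelial markers listed, KRT8, KRT18, KRT19 and CLDN3 were not found by symbol. The mean log2 level of the others was 9.50 in PI1, 9.21 in CC4 and 9.51 in CI3, the shallowest libraries, and 10.04 in PI4, the next. It was 10.04 in CI2, 10.27 in CC2 and 10.50 in PC4, the deepest. The part of depth in the relations between NOTCH2, NUMB, HES1 and the epithelial level was not tested.

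**Figure D5:**
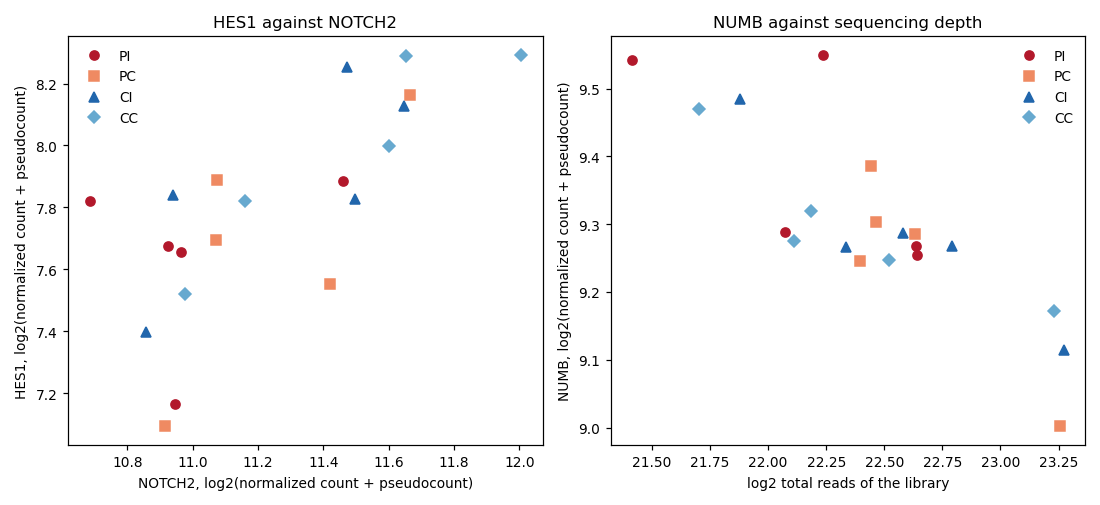
HES1 against NOTCH2 (left) and NUMB against sequencing depth (right) in the 20 libraries, all on log2 scales, with points colored by group. HES1 is higher where NOTCH2 is higher (r = 0.73), and NUMB is lower in deeper libraries (r = -0.84); libraries of all 4 groups lie along both trends.

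For each gene, features with a symbol and the most similar pattern over the 20 libraries were listed by Pearson's r, as a description. They were ARHGEF16 (0.84), CKB (0.82) and CALHM2 (0.81) for NOTCH1, PEF1 (0.96) and CDS2 (0.95) for NOTCH2, and ZNF496 (0.90), IRAK1 (0.90) and SGSH (0.90) for NOTCH3. Those of the ligands were CAPSL (0.76), ADRB3 (0.75) and TAGLN3 (0.74) for JAG1, SLC47A1 (0.82) and CPSF1 (0.81) for JAG2, and GALT (0.78), DDX41 (0.78) and GET4 (0.78) for DLL1. RBPJ was closest to PLAA (0.92), STAG2 (0.92) and RFC5 (0.90), and HES1 to SLC25A4 (0.92) and RPL23 (0.91). HEY1 was closest to PSKH1 (0.67), NTN4 (0.66) and DCT (0.66), and NUMB to CCDC150 (0.90), GPATCH2 (0.90) and RNF207 (0.89). HES1 was nearer to these features outside the pathway than to NOTCH2 (0.73). They were picked as the highest r among 12430 features with a symbol, so no conclusion on NOTCH2 follows.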

How the data were processed

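Whole-transcript RNA of 20 libraries was measured by sequencing. Per the labels' protocols, a stranded kit for total RNA with removal of ribosomal RNA was used, while another label names polyA RNA, and which of them holds is unknown. The submitters' processing notes name CASAVA 1.8, which demultiplexes reads; for the aligner, counter, strand setting and genome build nothing is stated in those sources, so overlapping and antisense genes are uncertain and no coordinates or sequences are printed.

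The authors deposited TMM-normalized counts, a signal in which the reads of a library are multiplied by 1 factor. The reads behind them were recovered, and 100% of the values were whole within 0.01 reads. Features over 1 CPM in at least 5 libraries were kept. A linear model of the 4 group means (limma 3.58.1 in R 4.3.3), with trended and robust variance and Benjamini-Hochberg adjustment at 0.05 was fitted to log2(value + 0.5 CPM, equal to 3.03 normalized counts) over all features and 20 libraries. Tests are 2-sided, and ± is SE for differences and SD for levels. Correlations used 100000 permutations, with a smallest possible p of 1e-05, and depth intervals and floors cover counting error only. Alternatives were other pseudocounts, filters and scalings, edgeR 4.0.16 and DESeq2 1.42.0 on the recovered reads, a replicate block, covariates for depth and for other cells, and leaving out libraries. The procedure was tested on simulated counts with known changes between PI and CI, drawn independently for each library. It recovered 26 of 100 changes of 2-fold and 79 of 100 of 4-fold, and 9 of its 114 calls were false. Most changes of 2-fold were thus missed.

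The 10 genes, the lists and the tests were chosen with earlier results of these data known. The text names the 10 genes, the 5 other pathway genes with the smallest p in each comparison, the 3 features most like each of the 10 genes (3 of these features are not reported here), and up to 3 markers of a list; other genes (DNER as the sixth, HEY2, MUC1 and the rest of the fate genes) are named with their values already seen. Listed pathway genes not matched by symbol are LFNG, NEURL1B, PSENEN, NRARP, HES4, HES5 and HES6. Whether replicate numbers pair libraries was checked from their deviations from the group means. The 5 pregnant pairs correlated at 0.53 to 0.70, and libraries of the same number but other status at -0.40 to 0.59. The numbers were taken to pair the pregnant libraries, although these ranges overlap. The main model has no term for this pairing, which only the replicate blocks use. Only 3 of the 5 cyclic pairs were over 0.1 (from -0.041 to 0.68). The cyclic numbers were therefore not shown to pair libraries, and a shared mare remains possible. The random block, and the fixed block in the side and interaction comparisons, still grouped cyclic libraries by number.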

Additional observations from a re-analysis of the deposited data

Results flagged for a closer look

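A low library stood apart from the others of its group in 3 of the 40 groups of 5 values tested (10 genes in 4 groups): the gap to the next value, divided by the range of the group, exceeded Dixon's critical value of 0.710, which chance exceeds in about 1 of 20 groups. JAG1 was 708 normalized counts in PI4, against 1320.4 to 1503 in the other PI libraries (gap over range 0.828). JAG1 was also 866 normalized counts in PC4, against 1426 to 1482 in the other PC libraries (0.929). RBPJ was 303 normalized counts in CI3, against 421 to 475 in the other CI libraries (0.732). PI4 and PC4 carry the same number, and PC4 had the highest summed leukocyte markers (2913 normalized counts) and proliferation markers (3533) of all libraries; PI4 had the second highest proliferation sum (2090.1). ENSECAG00000014226 took 27.8% of the reads in PI4 and 15.4% in CI3. The part of these measures in the low values was not tested.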

How the results depend on the processing

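Over 2476 refits of the 10 genes (7 comparisons, all alternatives) none passed adjustment (lowest adjusted p 0.317, limma, NOTCH2) and 16 had an unadjusted p under 0.05, all for NOTCH2 or HES1 and all lower in pregnant mares. In the averaged pregnancy comparison 2 of the 10 had such a p with CPM without TMM, 1 with DESeq2, 1 with a fixed replicate block, 1 with a leukocyte covariate, 2 with a depth covariate and 0 to 2 when 1 library was left out; between PC and CC, 2 had it with a depth covariate. The interaction of NUMB was -0.0015 with a depth covariate, against 0.15; the cause was not tested. Features called in the averaged comparison numbered 16, with 190 by DESeq2, 0 without PI1, PI4 and CI3, 0 with a random and 68 with a fixed replicate block, 4 with a leukocyte covariate, 30 with a depth covariate, 2 without PI4 and PC4 (chosen after seeing the data) and 2 to 26 with 1 library left out: 2 without PC1 or CC2, 3 without PC5 or CC3, 4 without PI1 or CI5, 5 without CI1 or CI4, 6 without PI4 or PC4, 7 without CC4, 25 without PC2 and 26 without PI5 or CC5. Between PC and CC, 0 became 1 with CPM without TMM, 6 by DESeq2 and 1 with a depth covariate. With the blocks 0 features passed adjustment in each of the other 6 comparisons. In the pregnancy comparisons the fixed block grouped libraries by replicate number alone, across pregnant and cyclic mares. The labels do not say that such libraries are related. The 68 features and the lowest adjusted p, 0.317 for NOTCH2 (limma), came from this fit. Whether same-numbered cyclic libraries share a mare is unknown; 16 of the 20 libraries correlated best with their own number. Depth limits DLL1 and HEY1, at 2 to 37 reads.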
